A study of Mus musculus with 6 samples.

Results

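Semaphorins are secreted or membrane-bound guidance proteins, plexins are their receptors, and neuropilins are co-receptors that bind class 3 semaphorins and VEGF. The family was taken as every protein-coding gene of the mm10 RefSeq annotation whose symbol names a semaphorin (Sema followed by a class number), a plexin of the A to D classes, or a neuropilin. The rule uses gene symbols and no measured value. It gave 31 of 21887 coding genes, namely 20 semaphorins, 9 plexins and 2 neuropilins. A peak was counted for a member when its midpoint was nearest an end of that gene among coding genes, within 100 kb. In all, 43 of the 12105 deposited peaks met this rule, 28 of 8615 from the knockout list and 15 of 3490 from the control list. A peak assigned in this way is not shown to regulate the gene.

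ATAC-seq, which uses a transposase to cut and tag open DNA, had measured chromatin accessibility in sorted microglia, the resident macrophages of the brain. The animals were C57BL/6J mice, labelled as 8 weeks old. The cKO group carried Mir137loxP/loxP with Tmem119-CreERT2 and the cWT group carried Mir137+/+ with the same Tmem119-CreERT2 allele, so the tamoxifen-inducible recombinase, driven by the microglial gene Tmem119, is present in both. Tamoxifen was given on 7 days, starting at 7 to 8 weeks of age. Each group had 3 libraries, 6 in all, of about 50000 cells, and the series gives n = 4 mice without linking libraries to animals. The series asks which transcription factors act most in microglia without miR-137. The lists hold peaks that the submitters deposited as specific to 1 genotype, 1 list per genotype and no value per library. The spread between animals therefore cannot be measured, the depth is unknown, and the intervals below cover counting error over peaks only. A peak specific to 1 genotype may come from a change in many cells or in a subset of cells, and these cannot be told apart.

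In the classical scheme a semaphorin on one cell binds a plexin on another, and the plexin's cytoplasmic part switches off Ras-family GTPases and rearranges actin at the cell edge. Class 3 semaphorins are secreted and act through neuropilin and A-class plexin complexes. Membrane-bound class 4 semaphorins pair mainly with B-class plexins, class 6 with A-class plexins, and Sema7a with the C-class plexin Plxnc1. Several of these molecules, among them Sema4a, Sema4d and Sema7a, are also known as immune semaphorins, and microglia and other macrophages express plexins that sense them.

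At 4 receptor and ligand genes a cKO-specific peak fell at or just upstream of a transcription start given in the RefSeq promoter table (GRCm38.p6). The 250 bases before each of these starts are shown because they are the family's sequences nearest to such a peak. The authors' unadjusted p-values of these peaks were high: 0.896 at Plxna2, 0.903 at Plxnb1, 0.973 at Plxnc1 and 0.856 at Sema4g. The authors' adjusted p-value was 0.979 for each. The table held starts for 26 of the 31 members; Plxna1, Plxna4, Sema3b, Sema3f and Sema6a are not in it. Sequences run 5′ to 3′ on the strand of the gene, and capitals mark bases inside the cKO-specific peak.
Plxna2, chr1:194619579-194619828, plus strand: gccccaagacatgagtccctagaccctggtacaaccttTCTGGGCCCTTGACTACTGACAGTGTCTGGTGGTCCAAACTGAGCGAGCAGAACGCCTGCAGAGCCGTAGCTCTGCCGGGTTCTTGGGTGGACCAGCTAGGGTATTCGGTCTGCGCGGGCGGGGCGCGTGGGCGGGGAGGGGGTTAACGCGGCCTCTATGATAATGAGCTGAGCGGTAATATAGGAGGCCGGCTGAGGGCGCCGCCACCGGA
Plxnb1, chr9:109095186-109095435, plus strand: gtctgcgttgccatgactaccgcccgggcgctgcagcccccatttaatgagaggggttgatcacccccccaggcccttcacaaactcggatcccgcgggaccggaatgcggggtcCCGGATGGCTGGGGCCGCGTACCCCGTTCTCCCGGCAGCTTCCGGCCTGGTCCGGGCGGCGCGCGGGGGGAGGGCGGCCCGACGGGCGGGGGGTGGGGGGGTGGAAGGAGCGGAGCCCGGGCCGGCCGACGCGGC
Plxnc1, chr10:94944846-94945095, minus strand: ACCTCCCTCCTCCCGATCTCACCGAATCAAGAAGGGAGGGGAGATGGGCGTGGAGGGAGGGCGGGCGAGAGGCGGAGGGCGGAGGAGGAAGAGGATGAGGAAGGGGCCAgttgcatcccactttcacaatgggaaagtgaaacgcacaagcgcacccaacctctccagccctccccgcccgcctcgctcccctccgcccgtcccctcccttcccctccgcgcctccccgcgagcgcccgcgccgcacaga
Sema4g, chr19:44989094-44989343, plus strand: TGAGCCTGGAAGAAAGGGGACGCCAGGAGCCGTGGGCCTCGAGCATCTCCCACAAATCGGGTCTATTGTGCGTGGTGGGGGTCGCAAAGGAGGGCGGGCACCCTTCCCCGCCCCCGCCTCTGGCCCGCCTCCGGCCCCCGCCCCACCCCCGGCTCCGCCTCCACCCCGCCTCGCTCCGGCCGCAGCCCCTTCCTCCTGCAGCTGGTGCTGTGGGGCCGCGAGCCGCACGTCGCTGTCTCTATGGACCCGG

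The cKO-specific peaks held 212 of the 250 bases at Plxna2, 135 at Plxnb1, 109 at Plxnc1 and all 250 at Sema4g. At Plxna2, Plxnb1 and Sema4g the peak also covered the listed start. At Plxnc1 it lay wholly upstream of the start, with its midpoint 287 bp before it. The 4 windows were GC-rich, at 62.8% for Plxna2, 75.2% for Plxnb1, 68.8% for Plxnc1 and 73.2% for Sema4g, beside a median of 55.6% over the 21263 windows of coding genes in the table and 64.0% over the 37 windows of members. They held 18, 30, 22 and 24 CpG dinucleotides in the same order, beside a median of 10 over all windows.

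A search for 10 short motifs on both strands found only the GC box (GGGCGG) in these windows. It occurred 2 times at Plxna2, 4 times at Plxnb1, 4 times at Plxnc1 and 3 times at Sema4g, and 42.6% of all coding windows hold it at least once. All matches at Plxna2 and Sema4g lay inside the peak. So did 3 of 4 at Plxnb1 and 2 of 4 at Plxnc1. There was no match for AP-1 (TGANTCA, in 6.13% of all windows), for CRE (TGACGTCA, 1.92%), for PU.1 (GAGGAAGT, 2.23%), for RUNX (TGTGGT, 12.4%), for the E-box (CACGTG, 6.63%), for the CCAAT box (35.4%) or for the TATA box (TATAAA, 11.6%). These letters are a description of the windows and not evidence for or against binding of a factor.

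The deleted gene encodes a microRNA whose main product is shown with its seed, bases 2 to 8, in capitals, because the series title concerns microRNA action in the nucleus.
mmu-miR-137-3p, chr3:118433901-118433923, plus strand: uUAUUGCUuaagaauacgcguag
The complement of this seed (AGCAATA) and that of the mmu-miR-137-5p seed (ATACCCG) occurred in 0 of the 4 windows on either strand, and in 1.51% and 0.442% of all coding windows.

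Among all 31 members, 15 (48.4%) had at least 1 cKO-specific peak, beside 22.5% of all coding genes, and 9 (29.0%) had at least 1 cWT-specific peak, beside 11.4%. The median span of members was 40.5 kb against 17.2 kb for all coding genes, so the shares are also given by span. Whether span accounts for the difference was not tested. Among the 14 members spanning over 100 kb, 8 (57.1%) had a cKO-specific and 6 (42.9%) a cWT-specific peak, where 40.1% and 27.0% of all coding genes of that size did. Among the 17 shorter members it was 7 (41.2%) and 3 (17.6%), where 20.3% and 9.47% of shorter coding genes did. Per megabase of territory, meaning the sequence nearest to a gene's ends and within the limit, members had 5.59 cKO-specific and 2.99 cWT-specific peaks and all coding genes 4.65 and 1.83. The count of 15 members fell to 9 when only the higher-scored part of each list, from its median score up, was kept, beside 14.1% of coding genes then, and to 3 at authors' p-values up to 0.5, beside 4.18%. The cWT count of 9 fell to 3 at those p-values, beside 0.886% of coding genes, and to 3 when assignment stopped at 10 kb, beside 6.12%. The score of member peaks rose as their p-value fell, so the score and p-value filters are not separate checks.

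All 9 members with a cWT-specific peak also had a cKO-specific one, whereas 52.1% of the 2500 coding genes with a cWT-specific peak did. Of these members 6 span over 100 kb, and among all coding genes of that size the share was 65.9%. The 9 were Nrp2, Plxna2, Plxnb2, Plxnc1, Sema3f, Sema4b, Sema4d, Sema6a and Sema6d. Nrp1, Plxna4, Plxnb1, Sema4a, Sema4f and Sema4g had cKO-specific peaks alone. The other 16 members had no peak of either list: Sema3a, Sema3b, Sema3c, Sema3d, Sema3e, Sema3g, Sema4c, Sema5a, Sema5b, Sema6b, Sema6c, Sema7a, Plxna1, Plxna3, Plxnb3 and Plxnd1. A member without a peak may still be open in both genotypes, since the lists hold genotype-specific peaks only.

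**Figure D1:**
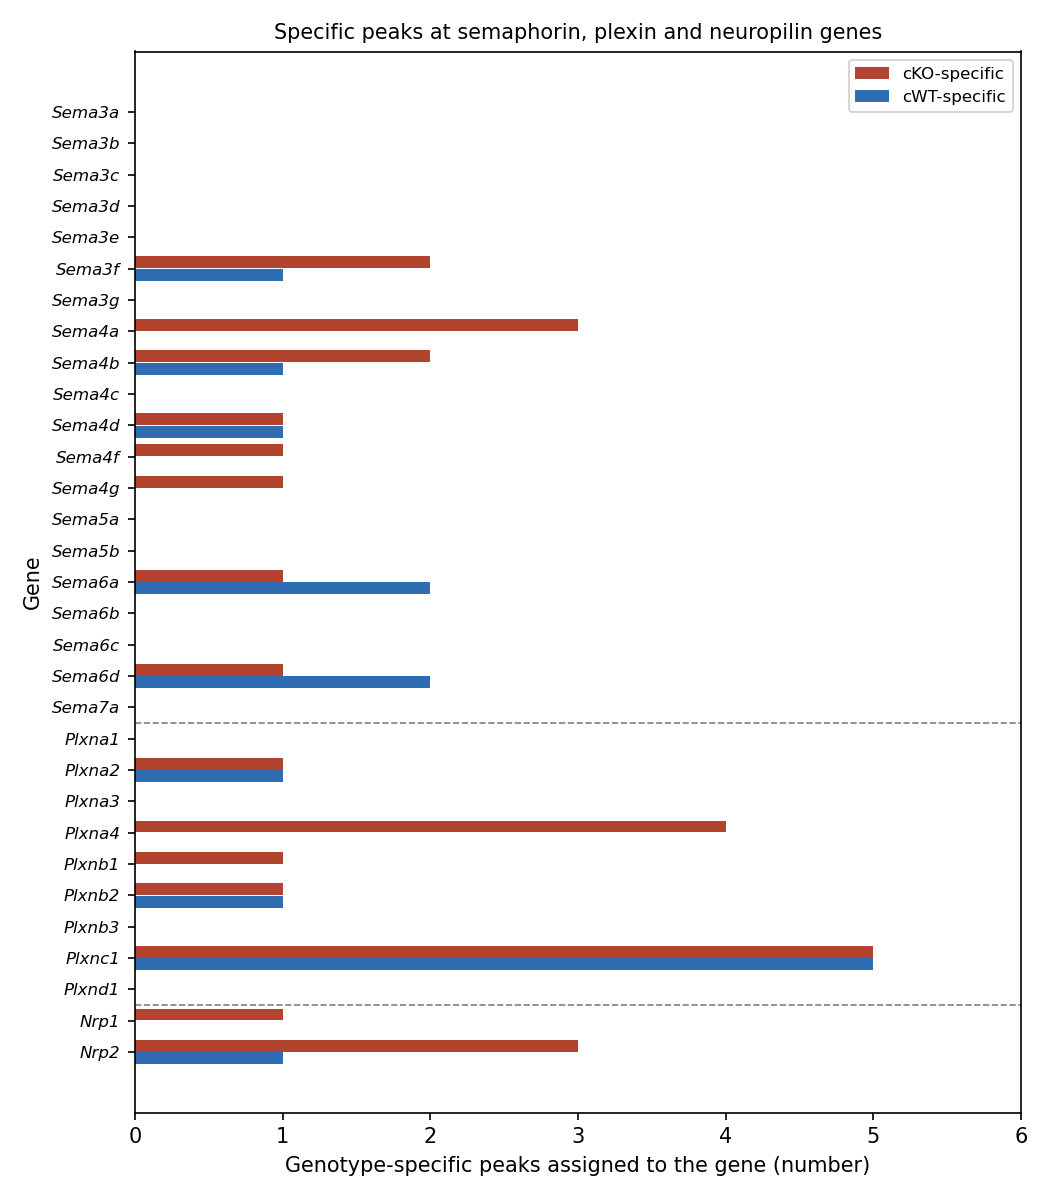
Number of cKO-specific (red) and cWT-specific (blue) peaks assigned to each of the 31 genes, with dashed lines between semaphorins, plexins and neuropilins. Plxnc1 has 5 in each list, Plxna4 has 4 cKO-specific and 0 cWT-specific peaks, and 16 genes have none.

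The interval around the family's balance between the lists included the balance of all assigned peaks. Of the 43 member peaks, 65.1% were cKO-specific (exact 95% interval 49.1 to 79.0), against 71.7% of all 11013 assigned peaks. For the 20 semaphorins the share was 63.2% (38.4 to 83.7; 12 cKO-specific and 7 cWT-specific peaks). For the 11 plexins and neuropilins it was 66.7% (44.7 to 84.4; 16 and 8 peaks). Without Plxnc1, a removal chosen after its values were seen, the receptors held 11 cKO-specific and 3 cWT-specific peaks, or 78.6% (49.2 to 95.3). With assignment limited to 10 kb the share over all members was 80% of 15 peaks, beside 72.6% of all peaks assigned under that limit.

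**Figure D2:**
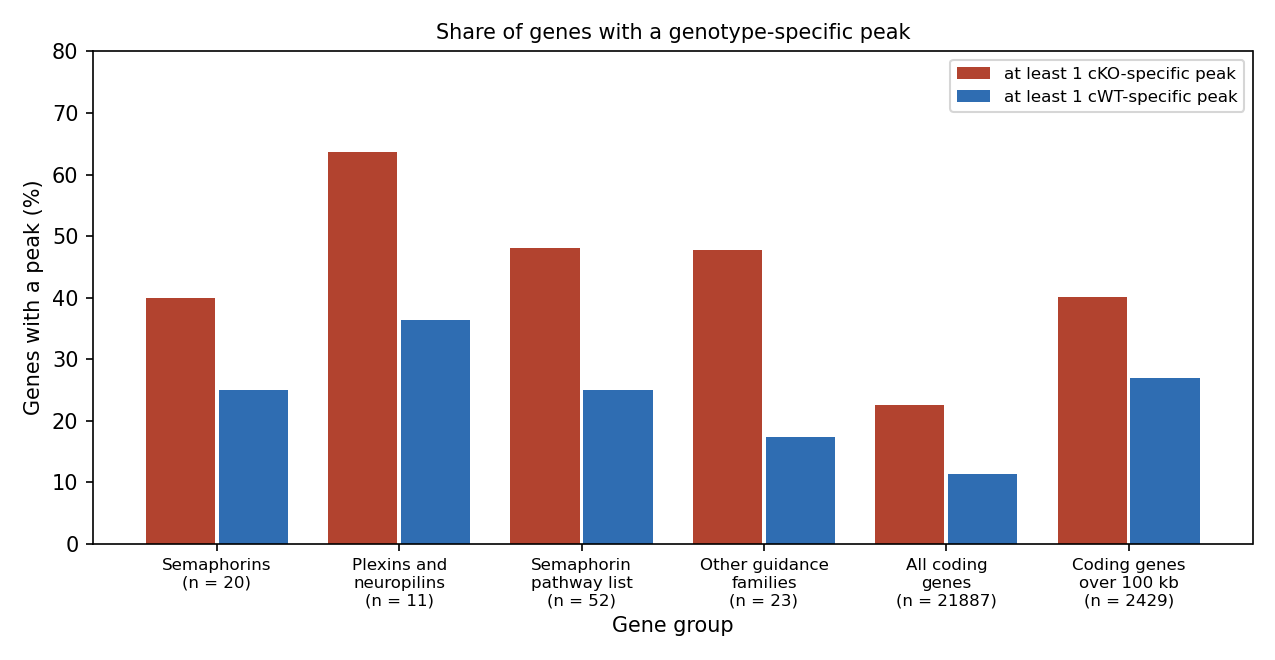
Percentage of genes with at least 1 cKO-specific (red) or cWT-specific (blue) peak in 6 gene groups, with the number of genes under each. Plexins and neuropilins stand at 63.6% and 36.4% and semaphorins at 40.0% and 25.0%, beside 40.1% and 27.0% for all coding genes spanning over 100 kb.

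Receptors. Plxnc1, the plexin that binds Sema7a, carried 5 cKO-specific and 5 cWT-specific peaks, and 5 coding genes had more peaks than its 10. At least 4 peaks were assigned to 3 members, Plxnc1, Plxna4 and Nrp2, and to 2.61% of all coding genes. The gene lies on the minus strand at chromosome 10, 94790866 to 94945015. The peaks of both genotypes were interspersed along and upstream of it, alternating except for a pair of neighbouring cWT-specific peaks upstream. Inside the gene, 115288.5 bp downstream of the listed start, a cKO-specific peak (94829409 to 94829704, authors' signal 12.4) shared its last 12 bp with a cWT-specific peak (94829693 to 94829982, signal 16.3). Closer to the start by 17076 bp lay a cKO-specific peak (94846781 to 94847065, signal 12.3) and, 2977 bp beyond it, a cWT-specific peak (94850043 to 94850232, signal 17.2). In the part of the gene near the start were a cKO-specific peak at 94923268 to 94923768 and a cWT-specific peak at 94935014 to 94935485. The former had the highest signal of the cKO-specific peaks at Plxnc1, 22.3, and their lowest p-value, 0.407; the latter had a signal of 13.8.

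Upstream of Plxnc1 the cKO-specific peak just before the start (94944987 to 94945277, capitals above) had a signal of 10.5. Its p-value of 0.973 was the highest of the family's cKO-specific peaks. It was followed by 2 cWT-specific peaks 680 bp apart (94960224 to 94960513, signal 7.63, and 94961194 to 94961627, with a signal above 22.0% of the list) and by a cKO-specific peak 880 bp wide (94966669 to 94967548, signal 13.9), which was the widest of the family. The numbers in the peak names, read as places in each genotype's full called list, ran over 8 consecutive places in both lists, of which 5 were specific in each. Of all numbered peaks 25.8% were specific in cKO and 12.1% in cWT, but the first and last peak of such a stretch are specific by construction. An exact binomial test of the cKO-specific share, run on all 271 coding genes with at least 5 peaks, gave Plxnc1 an unadjusted p of 0.158 and a Benjamini-Hochberg adjusted p of 1.0. The test called 0.0% of those genes at an adjusted p under 0.05, and 6 genes had an unadjusted p under 0.05. No coding gene had more than 15 peaks, and whether the test can call a shifted gene at such numbers was not tested. Plxnc1 was the only member with enough peaks for the test.

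Plxna4, an A-class plexin that acts with Nrp1 in the response to Sema3a, carried 4 cKO-specific and 0 cWT-specific peaks within the limit. They all lay inside the gene (chromosome 6, 32144543 to 32588192), toward its higher-coordinate end, from 83091.5 to 1719.5 bp from it, at 32504906 to 32505295, 32544192 to 32544399, 32570022 to 32570465 and 32586322 to 32586623. Their signals were 18.7, 15.9, 9.65 and 13.7 in that order. The last of them had the lowest p-value, 0.641. These were 4 of 6 consecutive numbered cKO peaks. A cWT-specific peak inside the gene fell just past the limit, 100622.5 bp from the end (32487416 to 32487723, signal 9.21), and a further cKO-specific peak inside the gene lay 183757 bp from its lower-coordinate end. The locus is therefore not free of cWT-specific peaks, and its count of 0 rests on the limit of 100 kb. The member peak nearest that limit on the inside was 91619 bp away, at Sema6d.

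Nrp2, the co-receptor for Sema3f, carried 3 cKO-specific peaks and 1 cWT-specific peak (gene at chromosome 1, 62703317 to 62818692). A cKO-specific peak lay 6270.5 bp upstream of the start (62696827 to 62697266, signal 16.0), and another 47906.5 bp downstream of it, inside the gene (62751090 to 62751357, signal 15.8). Further in, a cKO-specific peak (62773806 to 62774284, signal 24.1, p-value 0.676) and a cWT-specific peak (62774286 to 62774765, signal 23.1, p-value 0.366) lay next to each other with 1 bp between them. Within their own lists these signals were above 84.3% of the cKO peaks and 87.5% of the cWT peaks. Nrp1, the co-receptor for Sema3a, had a single cKO-specific peak 75214 bp from the gene (chromosome 8, 128283115 to 128283639, signal 15.9, p-value 0.940), within the noncoding gene A930035F09Rik. Beyond the limit 2 cWT-specific peaks and 1 cKO-specific peak were also nearest to Nrp1, from 155915 to 247268.5 bp away.

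**Figure D3:**
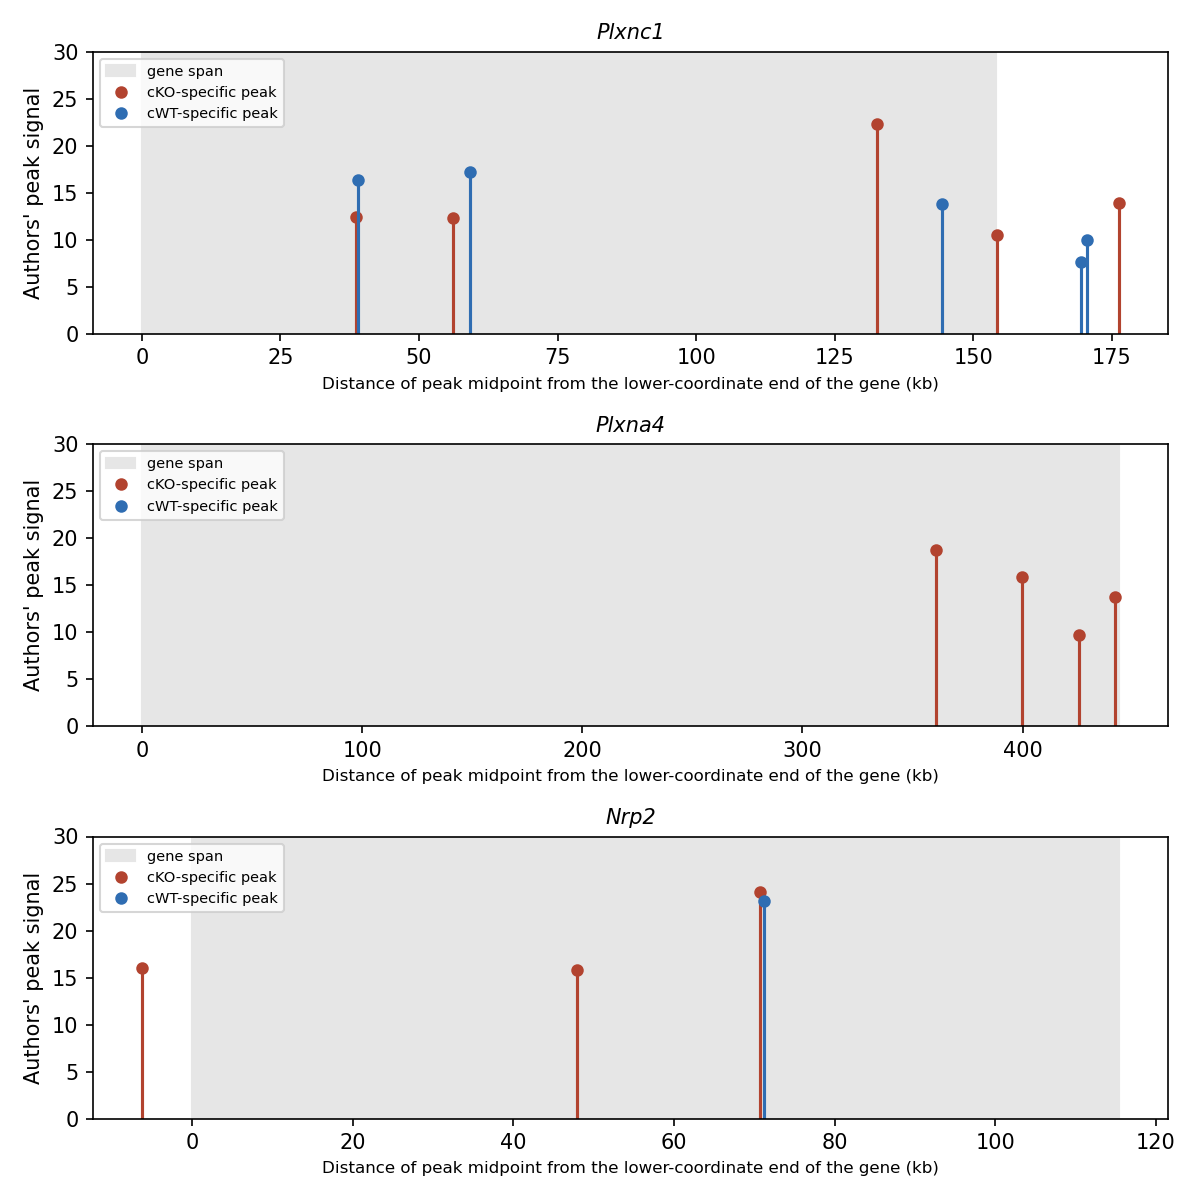
Authors' signal (vertical axis, scale not stated) of each cKO-specific (red) and cWT-specific (blue) peak at Plxnc1, Plxna4 and Nrp2 against the distance of its midpoint from the lower-coordinate end of the gene in kb; the grey area is the gene. Peaks of both lists are interspersed at Plxnc1. Plxna4 has cKO-specific peaks alone in the range counted, and 1 pair at Nrp2 is adjacent with signals of 24.1 and 23.1.

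The remaining plexins had 1 or 2 peaks each. Plxna2, a receptor for Sema6a, had the cKO-specific start peak shown above (chromosome 1, 194619617 to 194620106, signal 15.3, p-value 0.896), whose midpoint was 70.5 bp from the gene's end. It also had a cWT-specific peak deep in the gene (194775790 to 194776269, signal 16.0), 155683 bp away. Plxnb1, the receptor for Sema4d, had 1 cKO-specific peak (chromosome 9, 109095301 to 109095761, signal 10.6, p-value 0.903). Its midpoint was 1682 bp from the annotated end of the gene but 95 bp downstream of the listed start. This midpoint also lay within the noncoding gene Gm7628, and an end of the coding gene Ccdc51 was 2168 bp away. Plxnb2, a B-class plexin expressed in macrophages, had a cKO-specific peak (chromosome 15, 89172559 to 89172879, signal 13.2, p-value 0.551) 1232 bp downstream of a listed start. Its cWT-specific peak (89158022 to 89158318, signal 16.9, p-value 0.730) lay 2624 bp from the far end of the gene.

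Ligands. Class 4 semaphorins, membrane-bound proteins, had a peak of either list at 5 of 6 members, beside 27.9% of all coding genes, with 8 cKO-specific and 2 cWT-specific peaks in all, over territories that together came to 0.382 megabases. Sema4a, an immune semaphorin that acts on T cells, carried 3 cKO-specific peaks and no cWT-specific one. They lay 1014 bp and 5181 bp from the end of the gene opposite its listed starts (chromosome 3, 88436746 to 88437200, signal 17.1, and 88440901 to 88441379, signal 11.6), and 6162.5 bp upstream of the start (88467207 to 88467482, signal 22.2). From the last of these to the closest cWT-specific peak it was 46012 bp.

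Sema4b carried the strongest cKO-specific peak of the family by signal (chromosome 7, 80208856 to 80209583, signal 28.8, p-value 0.404), and a weaker one at 80214460 to 80214835 (signal 12.6). Its cWT-specific peak, 5018 bp from the former, was also strong for its list (80203569 to 80203837, signal 22.4, p-value 0.378). All 3 lay inside the gene, 5115 to 16059.5 bp downstream of the nearest listed start. Sema4d, the ligand of Plxnb1 and Cd72, carried the cKO-specific peak with the lowest p-value of the family, 0.262 (chromosome 13, 51734233 to 51734911, signal 15.5), 4874 bp downstream of a listed start. Its cWT-specific peak had a p-value of 0.950 and lay 1441 bp from the gene's far end (51686839 to 51687101, signal 17.1).

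Sema4g had 1 cKO-specific peak, at the start shown above (chromosome 19, 44988984 to 44989402, signal 13.9, p-value 0.856). The single cKO-specific peak of Sema4f lay 30002 bp outside the gene (chromosome 6, 82881749 to 82882015, signal 16.4). Class 3, the secreted semaphorins, had a peak at 1 of 7 members, beside the same 27.9%, although their territories together came to 1.48 megabases. This was Sema3f, the Nrp2 ligand, with cKO-specific peaks inside the gene (chromosome 9, 107685310 to 107685752, signal 15.0) and 14474 bp outside it (107724795 to 107725103, signal 28.5). Between them, inside the gene, was a cWT-specific peak of low signal (107694853 to 107695028, signal 8.40, p-value 0.972). The cKO-specific peak outside Sema3f was nearly as close to an end of the coding gene Rbm5, at 15546 bp. Class 5 and class 7, with 2 genes and 1 gene, had none, and so no peak was assigned to Sema7a, the gene of Plxnc1's ligand. The differences between classes were not tested.

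Class 6 semaphorins, ligands of A-class plexins, were the ligand class with more cWT-specific than cKO-specific peaks, 4 and 2, over 2 of 4 genes. The cKO-specific share was 33.3% (exact 95% interval 4.33 to 77.7), an interval that includes the 71.7% of all assigned peaks. At Sema6a (chromosome 18, 47245254 to 47371200) the 2 cWT-specific peaks adjoined without a gap (47269218 to 47269648 and 47269649 to 47269930) and had the same signal, 26.8, so they may be parts of a single region. Their p-values, 0.328 and 0.481, were the lowest and the fourth lowest of the family's cWT-specific peaks, and their signal was above that of 93.0% of the list. The cKO-specific peak of Sema6a was weak and lay 785 bp from the other end of the gene (47370311 to 47370519, signal 9.27, p-value 0.871), 100380 bp away. Sema6d had a cKO-specific peak inside the gene (chromosome 2, 124575988 to 124576352, signal 20.3) and 2 cWT-specific peaks beyond it, 52434 and 73216.5 bp from its end. These had signals of 15.7 and 9.17 (124719924 to 124720522 and 124740828 to 124741183) and lay within the noncoding genes Gm34484 and Gm39920.

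Most member peaks lay inside the gene itself. This held for 21 of 28 cKO-specific peaks (75.0%) and 11 of 15 cWT-specific peaks (73.3%), beside 56.0% and 57.2% of all assigned peaks. Within 1000 bp of an end of the gene were 4 cKO-specific peaks (14.3%), at Plxna2, Plxnc1, Sema4g and Sema6a, and 0 of 15 cWT-specific peaks. Over all assigned peaks the shares were 15.0% and 17.8%, so the cKO share of the family was near that of the lists as a whole, and the count of 0 rests on 15 peaks. Those 4 peaks were of low score: none had a score reaching the median of its list. The median distance to the gene's end was 15950.25 bp for cKO-specific and 24179 bp for cWT-specific member peaks, beside 10500.5 and 11607.5 bp over all assigned peaks. Neither the share inside the gene nor this distance was matched for gene span. The median span was 40.5 kb for members and 17.2 kb for all coding genes.

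All 43 peaks were of the kind named secondary, which has the higher p-values, as were 97.5% of all assigned peaks, and their adjusted p-values were 0.979 in cKO and 0.981 in cWT. The median signal was 15.4 for the 28 cKO-specific peaks (9.27 to 28.8; 16.6 over all assigned cKO-specific peaks) and 16.3 for the 15 cWT-specific peaks (7.63 to 26.8; 13.7 over all). With p-values up to 0.5 there were 3 cKO-specific peaks (10.7% of the members', beside 12.4% of all), at Sema4d, Sema4b and Plxnc1. There were 4 cWT-specific peaks (26.7%, beside 6.29% of all), the pair at Sema6a and 1 each at Nrp2 and Sema4b. In that subset the cKO-specific share was 42.9% of 7 peaks, where 83.3% of all assigned peaks with such p-values were cKO-specific. This difference was noticed in the data and was not tested, and counting the adjoining Sema6a pair once leaves 3 against 3. The test behind the deposited p-value was not given in the sources used here, and an equal limit may not mean the same in each list.

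**Figure D4:**
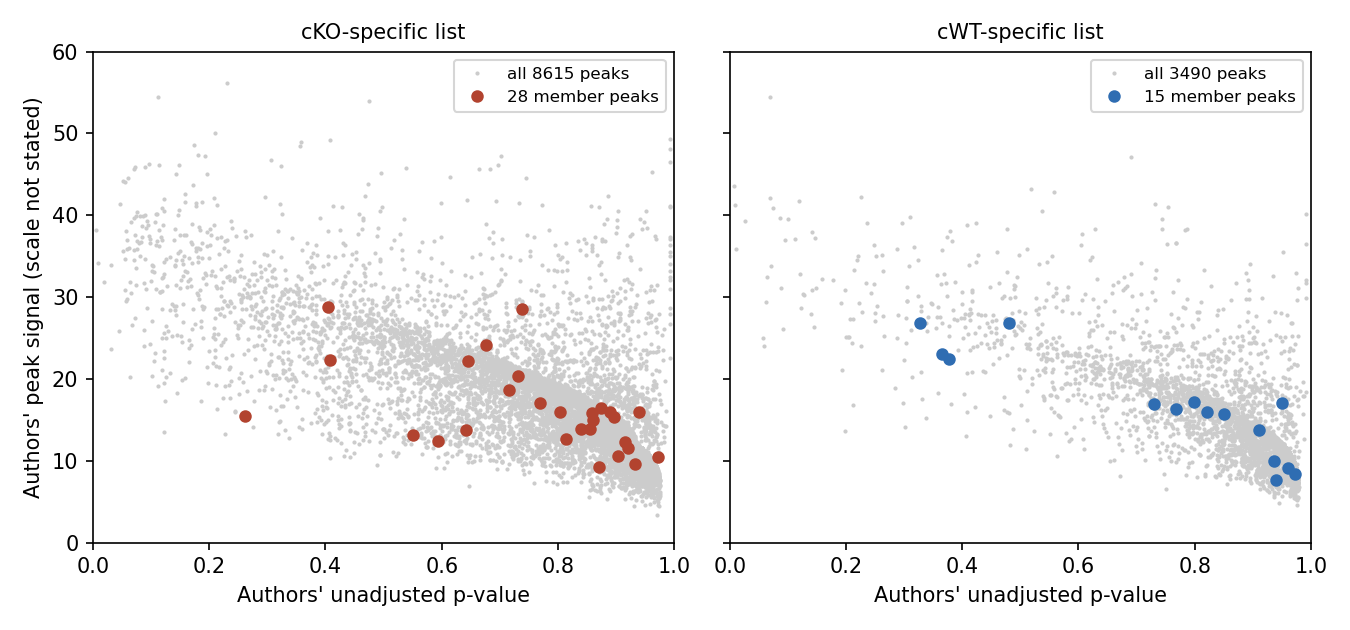
Authors' signal (vertical axis) against the authors' unadjusted p-value (horizontal axis) for all peaks of each list (grey) and for the member peaks (28 in cKO, red; 15 in cWT, blue). In the cWT list 4 member peaks sit apart at p-values from 0.328 to 0.481; the lowest p-value in the cKO panel is 0.262, at Sema4d.

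Genes that act downstream of or beside the receptors were described from a list of 52, grouped by role. The list was chosen with earlier results of these data known. Of these, 25 (48.1%) had a cKO-specific and 13 (25.0%) a cWT-specific peak, with 45 and 18 peaks, beside 22.5% and 11.4% of all coding genes. The median span of the 52 genes was 51.2 kb. Of all coding genes spanning over 100 kb, 40.1% and 27.0% had such peaks, and of the shorter ones 20.3% and 9.47%. GTPases and their regulators had a cKO-specific peak at 10 of 18 and a cWT-specific peak at 3. Arhgap5 and Farp1, the latter a guanine nucleotide exchange factor gene that acts with plexin A, had 4 cKO-specific and 0 cWT-specific peaks each. Rnd3 had 2 and 3, and Rap1b, a GTPase that plexins switch off, 2 and 2. For cytoskeletal genes the numbers were 6 and 4 of 12, with 4 and 1 peaks at Mical3, of the actin-oxidizing MICAL family, and 3 and 1 at the kinase gene Pak1. Kinases and adaptors had them at 5 and 2 of 10. Co-receptors and other semaphorin receptors had them at 4 and 4 of 12, with 4 and 0 at the integrin gene Itgav and 2 and 2 at Kdr, which encodes a VEGF receptor. In 23 genes of the Slit, netrin and ephrin families and their receptors, the counts were 11 (47.8%) and 4 (17.4%). Their median span was 149 kb, and of all coding genes spanning over 100 kb 40.1% and 27.0% had such peaks.

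The labelled cell type can be checked only in part, because open chromatin common to both genotypes is outside the lists. Of 10 microglial marker genes, 7 had a cKO-specific and 2 a cWT-specific peak, where 22.5% and 11.4% of all coding genes did. Marker genes of other cells had cKO-specific and cWT-specific peaks at 2 and 1 of 7 for neurons, 4 and 2 of 6 for astrocytes, 3 and 2 of 7 for the oligodendrocyte lineage, 4 and 0 of 6 for vascular cells, 1 and 0 of 6 for lymphocytes and 3 and 2 of 6 for other macrophages and monocytes. Neurons and vascular cells also use semaphorins and neuropilins, and the part of such cells in the member peaks was not tested.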

How the data were processed

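ATAC-seq of sorted microglia, 3 cKO and 3 cWT libraries grouped by title, was used through 2 deposited peak lists, 1 per genotype. The submitters' processing notes name HOMER 4.11, Bowtie2 2.4.4 and MACS2 2.2.7.1, with mm10 and GRCm38; their roles, the pooling of replicates and the choice of specific peaks were not given in the sources used here. The lists have no header. From layout and values, the authors deposited a score, a signal of unstated scale, an unadjusted p-value and its adjusted p-value for each peak; these are the authors' values and only describe or filter peaks within a list. The number in a peak's name rose with position on every chromosome in both lists.

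Each peak went to the protein-coding gene whose end was closest to its midpoint (GRCm38.p6 RefSeq table, no exon, intron or UTR classes) within 100 kb. Listed starts and promoter windows came from the RefSeq promoter table, and mature miRNAs from the RefSeq miRNA table. Shares have exact (Clopper-Pearson) 95% intervals. For genes having 5 or more peaks, the cKO share was compared by a two-sided exact binomial test against that of all assigned peaks. Benjamini-Hochberg adjustment was over 271 genes. The script was tested on simulated data with more peaks per gene than the lists hold. How often the test would call a shifted gene at the lists' own numbers of peaks was not tested. Members and lists were chosen with earlier results of these data known. Named genes were every member with a peak, and pathway genes with at least 4 peaks; promoters were shown where a peak midpoint lay within 1000 bp of the window, at most 4. Peak positions were given for all members, beyond the rule. Depth per library is unknown. Alternatives covered p-value, score, assignment distance and rule, gene set, merging within 500 bp, the gene-end window and the peak minimum. The score orders the member peaks as the p-value does. Leaving out Plxnc1 was added after the data were seen. Tools were scipy 1.17.1, pandas 2.3.3, numpy 2.4.6 and matplotlib 3.10.9 under Python 3.11.15.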

Additional observations from a re-analysis of the deposited data

How the results depend on the processing

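Of 61 recomputed values, 45 stayed close to the reported ones: counts within 1.5 times, shares within the reported interval. The intervals are wide, so shares of 40% over semaphorins and 50% over plexins and neuropilins at p-values up to 0.5 counted as close. Keeping only peaks with p-values up to 0.5 left 3 members with a cKO-specific and 3 with a cWT-specific peak. The cKO-specific share was then 42.9%, with 0 member peaks at a gene end. Pathway genes came to 4 and 0 of 52, where 4.18% and 0.886% of all coding genes had such peaks. Keeping peaks at or above the median score left 9 members with a cKO-specific peak, beside 14.1% of all coding genes, and 0 peaks at a gene end. It left 8 pathway genes with a cWT-specific peak, beside 6.57% of all coding genes. Both filters keep fewer peaks by construction. They are not separate checks, because the score of member peaks rose as their p-value fell. Assignment within 10 kb left 3 members with a cWT-specific peak, beside 6.12% of all coding genes. It raised the cKO-specific share to 80% over all members, from 15 peaks, and to 85.7% over semaphorins, from fewer. Pathway genes came to 11 and 5, where 14.2% and 6.12% of all coding genes had such peaks. Among all annotated genes, 16 pathway genes had a cKO-specific peak, beside 16.8% of all coding genes. A gene-end window of 3000 bp took in 9 member peaks, 7 of cKO and 2 of cWT. The share of all assigned peaks within that window was not computed. Assigning peaks to the containing gene first and merging peaks changed no count of members. The binomial test called 0 of 271 genes; it called 0 as well under the other settings, but these tested as few as 1 gene (p-values up to 0.5), 9 (10 kb) and 50 (median score), and say little about stability. No paired analysis was possible because neither list holds values for single libraries, and for the same reason no replicate could be left out. Depth per library is unknown, so a difference in depth between the genotypes was not tested.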
